A study of Mus musculus with 6 samples.

Results

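The fibrillar collagens of the proximal aorta were described here through 7 genes, *Col1a1*, *Col1a2*, *Col3a1*, *Col5a1*, *Col5a2*, *Col5a3* and *Col11a1*, taken by symbol from the 24421 genes of an expression matrix of sorted aortic cells. All 7 symbols were found, and 6 of them passed the filter on low values and entered the fit across all genes; *Col11a1* did not. The 6 libraries were made from living GFP+ cells of the dissected root and ascending segment of the aorta, from 129S6/SvEv mice aged 8 weeks, with 3 libraries per lineage. Mice of both groups carried the CAG-Sun1/sfGFP tracer allele, which marks cells once Cre has acted; the secondary heart field (SHF) group also carried Mef2cSHF and the cardiac neural crest (CNC) group Wnt1-Cre2, and no other allele or treatment is given in the labels. Mef2cSHF acts in progenitors of the secondary heart field and Wnt1-Cre2 in neural crest precursors. The sort took GFP+ cells of any type, so SHF and CNC name a line of descent and not a cell type. Values are in TPM, a share of transcripts that takes account of transcript length and sums to 1000000 in each library, so levels may be compared between genes, and the number of reads behind each value is unknown. The SHF and CNC samples are labelled as replicates, with no statement of how many animals went into each, and p-values measure the spread between these libraries.

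Fibrillar collagens are the rope-like proteins that give the aortic wall its tensile strength. Their chains are made as procollagens, are hydroxylated and folded into a triple helix in the endoplasmic reticulum, lose their end propeptides after secretion, and are then joined by crosslinks into fibrils. Type I collagen is built from the products of *Col1a1* and *Col1a2*, type III from that of *Col3a1* alone, and type V, a minor component that starts fibrils and limits their width, mostly from those of *Col5a1* and *Col5a2*. In humans, variants of the type III gene cause the vascular form of Ehlers-Danlos syndrome, and variants of the type V genes cause the classical form.

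*Col3a1* (GRCm38, chromosome 1, 45311538 to 45349706, + strand) and *Col5a2* (chromosome 1, 45374321 to 45503282, - strand) are neighbours that lie 24.6 kb apart with their 3' ends facing each other. The other genes are dispersed, *Col1a1* on chromosome 11 (94936224 to 94953042, +), *Col1a2* on chromosome 6 (4504814 to 4541544, +), *Col5a1* on chromosome 2 (27886425 to 28039514, +), *Col5a3* on chromosome 9 (20770050 to 20815067, -) and *Col11a1* on chromosome 3 (114030540 to 114220718, +). All 7 are annotated as protein-coding genes in GENCODE M21. Exons of *Col5a1* overlap the noncoding genes *2810430I11Rik* and *Gm13372* on the opposite strand, and the libraries do not mark strand, so reads from these could not be told apart. An annotated microRNA gene, *Gm47302*, lies on the same strand as an exon of *Col3a1*.

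RefSeq promoter windows (GRCm38.p6) were found for 5 of the 7 genes, *Col1a2*, *Col3a1*, *Col5a1*, *Col5a3* and *Col11a1*. Shown are the 250 bases before the start site of the most abundant member, of a moderately abundant one and of the one near 0, to show how unlike they are in base composition. Each is printed 5' to 3' in the direction of transcription. Capitals mark matches, on either strand, to CCAAT (the CCAAT box), GGGCGG (the GC box), TATAAA (the TATA box) and CAGAC (a Smad-binding letter string).
*Col3a1* (chr1:45311288-45311537, + strand): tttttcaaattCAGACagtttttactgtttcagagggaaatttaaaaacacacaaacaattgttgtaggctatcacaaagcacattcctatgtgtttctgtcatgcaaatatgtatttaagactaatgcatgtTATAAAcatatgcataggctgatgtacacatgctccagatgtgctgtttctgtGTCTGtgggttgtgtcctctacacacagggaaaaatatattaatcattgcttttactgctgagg
*Col5a1* (chr2:27886175-27886424, + strand): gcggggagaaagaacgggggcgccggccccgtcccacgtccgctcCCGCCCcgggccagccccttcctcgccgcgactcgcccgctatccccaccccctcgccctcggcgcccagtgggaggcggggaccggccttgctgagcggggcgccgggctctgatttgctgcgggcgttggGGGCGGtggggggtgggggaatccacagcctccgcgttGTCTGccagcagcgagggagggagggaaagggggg
*Col11a1* (chr3:114030290-114030539, + strand): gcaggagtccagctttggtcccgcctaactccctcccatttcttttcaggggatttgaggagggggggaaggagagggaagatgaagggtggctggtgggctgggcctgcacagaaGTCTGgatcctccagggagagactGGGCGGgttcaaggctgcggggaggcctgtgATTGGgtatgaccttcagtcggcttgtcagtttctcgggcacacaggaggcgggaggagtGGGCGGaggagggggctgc
G and C made up 35.2% of the *Col3a1* window, 76.4% of that of *Col5a1* and 62.4% of that of *Col11a1*, against a median of 52.4% over all 32851 windows. The windows not printed were close to that of *Col11a1*, at 62.0% for *Col1a2* and 62.8% for *Col5a3*. The *Col3a1* window held a TATA box, 117 bases before the start, found in 12.4% of all windows, and no GC box. The *Col5a1* and *Col11a1* windows held 2 GC boxes each, a string found in 32.7% of all windows, and no TATA box. The CCAAT box, found in 33.8% of all windows, was in the *Col11a1* window and also in those of *Col1a2* and *Col5a3*. The RefSeq start of *Col1a2* used for its window (bases 4505368 to 4505617) lies inside the GENCODE gene, so that window is not upstream of the start given above. The Smad letters, found in 42.2% of all windows, were in 4 of the 5 windows, all but that of *Col5a3*. Matches to strings this short describe the sequence only.

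Among the genes of the matrix, type III and type I collagen transcripts were some of the most abundant in both lineages, type V transcripts were intermediate and *Col11a1* was close to 0. By mean level over all libraries, *Col3a1* ranked 6th, *Col1a1* ranked 11th and *Col1a2* ranked 35th of 24421 genes, *Col5a2* ranked 479th and *Col5a1* ranked 736th. The order *Col3a1*, *Col1a1*, *Col1a2*, *Col5a2*, *Col5a1*, *Col5a3* held in 6 of 6 libraries. The narrowest steps were from *Col3a1* to *Col1a1*, 1.26-fold to 1.97-fold within a library, and from *Col5a2* to *Col5a1*, 1.16-fold to 2.31-fold, and *Col5a3* exceeded *Col11a1* in 5 of 6 libraries. The mean TPM was higher in CNC for 6 of the 7 genes, *Col11a1* being the exception.

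**Figure D1:**
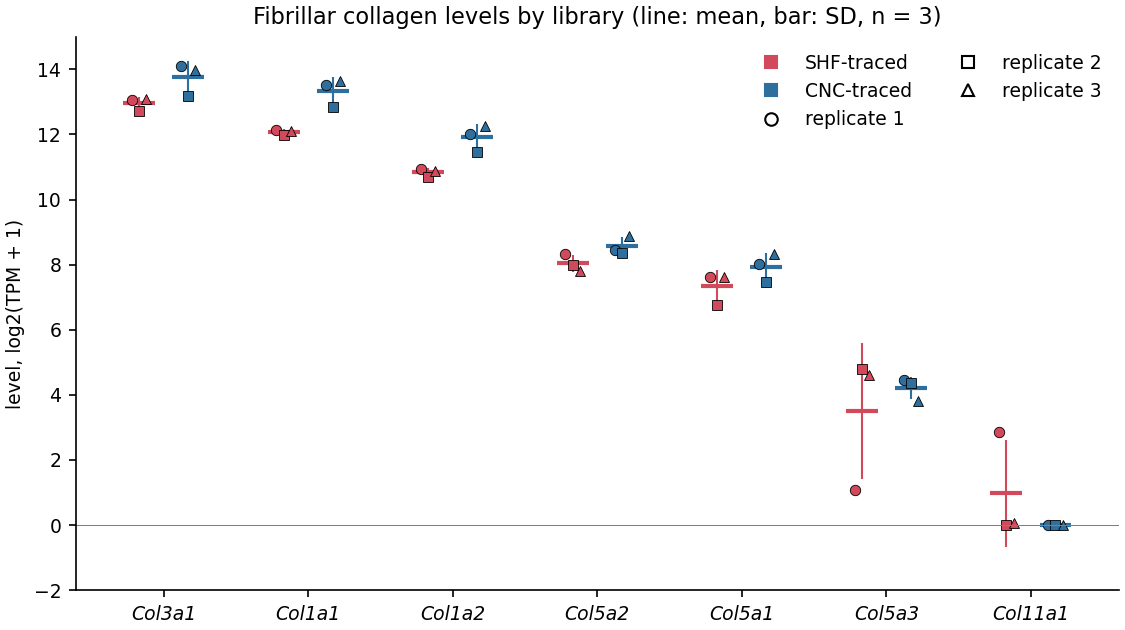
Level of each fibrillar collagen gene in each library, as log2(TPM + 1), with SHF-traced libraries in red and CNC-traced in blue; symbols give the replicate, horizontal lines the mean and vertical bars the SD (n = 3). For *Col3a1*, *Col1a1*, *Col1a2* and *Col5a2* all 3 CNC libraries lie above all 3 SHF libraries, while those of *Col5a1* and *Col5a3* overlap and *Col11a1* is near 0 apart from SHF replicate 1.

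Type I collagen transcripts showed the widest gap between the lineages. *Col1a1*, which encodes the alpha1 chain, was at 4541, 4005 and 4396 TPM in SHF replicates 1 to 3 and at 11792, 7322 and 12778 TPM in CNC replicates 1 to 3. The groups did not overlap, and the mean was 2.46-fold higher in CNC (10631 ± 2907 against 4314 ± 278 TPM, SD, n = 3). *Col1a2*, which encodes the alpha2 chain, was at 1951, 1657 and 1876 TPM in SHF and at 4112, 2843 and 4925 TPM in CNC, a 2.17-fold higher mean with no overlap (3960 ± 1049 against 1828 ± 153 TPM, SD, n = 3). In limma across all genes, the log2 fold change (SHF minus CNC) was -1.26 ± 0.239 (SE) for *Col1a1* (unadjusted p = 0.00026, adjusted p = 0.465) and -1.08 ± 0.247 for *Col1a2* (unadjusted p = 0.00109, adjusted p = 0.475). These p-values placed *Col1a1* 4th and *Col1a2* 21st of 10185 genes tested, yet neither passed the adjusted threshold of 0.05, nor did any other gene. They rest on a variance that follows the mean level, and in limma without that trend the unadjusted p was 0.0542 for *Col1a1* and 0.0857 for *Col1a2*. CNC replicate 2 was the lowest CNC library for both, still above every SHF library.

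Type III collagen showed the same ordering of libraries with a narrower gap. *Col3a1* was at 8546, 6770 and 8644 TPM in SHF and at 17544, 9250 and 16138 TPM in CNC. The groups did not overlap, though CNC replicate 2 lay close to the highest SHF library, and the mean was 1.79-fold higher in CNC (14310.5 ± 4438 against 7987 ± 1055 TPM, SD, n = 3). Its log2 fold change was -0.80 ± 0.258 (SE), with an unadjusted p of 0.0103 and an adjusted p of 0.68. Spread within a lineage differed for these 3 genes, with a coefficient of variation of 6.44% to 13.2% in SHF and 26.5% to 31.0% in CNC.

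Type V transcripts were scarcer, and their differences were smaller relative to the spread. *Col5a2* was at 318, 250 and 224 TPM in SHF and at 350, 329 and 475 TPM in CNC, without overlap but with the nearest libraries close together (log2 fold change -0.54 ± 0.314 SE, adjusted p = 0.874). *Col5a1* was at 197, 108 and 194 TPM in SHF and at 260, 175 and 317 TPM in CNC, and the groups overlapped because CNC replicate 2 lay below SHF replicates 1 and 3 (log2 fold change -0.60 ± 0.394 SE, adjusted p = 0.876). *Col5a3*, which encodes a rarer alpha3 chain, was at 1.13, 26.7 and 23.6 TPM in SHF and at 21.0, 19.5 and 13.0 TPM in CNC. SHF replicate 1 stood apart from the others for *Col5a3*, and the log2 fold change of -0.71 ± 1.22 (SE, adjusted p = 0.938) became 0.50 without it.

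*Col11a1*, a type XI chain best known from cartilage fibrils, was at 6.25, 0 and 0.04 TPM in SHF and was listed at 0 in all 3 CNC libraries. It did not reach the filter of 1 TPM in 3 libraries and did not enter the limma fit. The remaining fibrillar collagen genes were at similarly low levels. *Col11a2* was at 3.49, 1.25 and 9.79 TPM in SHF and 0, 0 and 4.07 TPM in CNC (log2 fold change 1.48 ± 1.10 SE, adjusted p = 0.888, 0.89 to 2.26 on leaving out each library, and 3.39 or 0.60 with a pseudocount of 0.1 or 5 TPM). *Col27a1* was at 0.14, 3.96 and 0.54 TPM in CNC and listed at 0 in SHF, *Col2a1* was above 0 in a single library (0.08 TPM in SHF replicate 2), and *Col24a1* was listed at 0 in all 6 libraries.

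Counted together, none of the 6 members that entered the fit was called at an adjusted p under 0.05, where the share called among all 10185 genes tested was 0%, with 323 genes higher in CNC and 274 (2.69%) higher in SHF at an unadjusted p under 0.05. At that level, 3 of the 6 tested members were higher in CNC, against 3.17% of all genes tested. Among genes averaging 100 TPM or more, 98 of 1522 were so, and among those averaging 1000 TPM or more, 19 of 148. In the limma fit without a mean-variance trend, the unadjusted p was 0.0542 for *Col1a1*, 0.0857 for *Col1a2* and 0.198 for *Col3a1*, each above 0.05. The libraries of 4 of the 6 tested members did not overlap and were higher in CNC, against 5.68% of all genes tested and 9.66% of the 1522 genes averaging 100 TPM or more. The median log2 fold change was -0.75 over the 6 members and 0.02 over all genes tested. Of the 148 genes averaging 1000 TPM or more, 6 had a lower log2 fold change than *Col1a1*, 10 than *Col1a2* and 13 than *Col3a1*. For single genes, the exact two-sided permutation test over 3 against 3 libraries cannot go below 0.1, and it gave p = 0.1 for *Col1a1*, *Col1a2*, *Col3a1* and *Col5a2*, 0.3 for *Col5a1*, 1 for *Col5a3* and 0.4 for *Col11a1*.

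**Figure D2:**
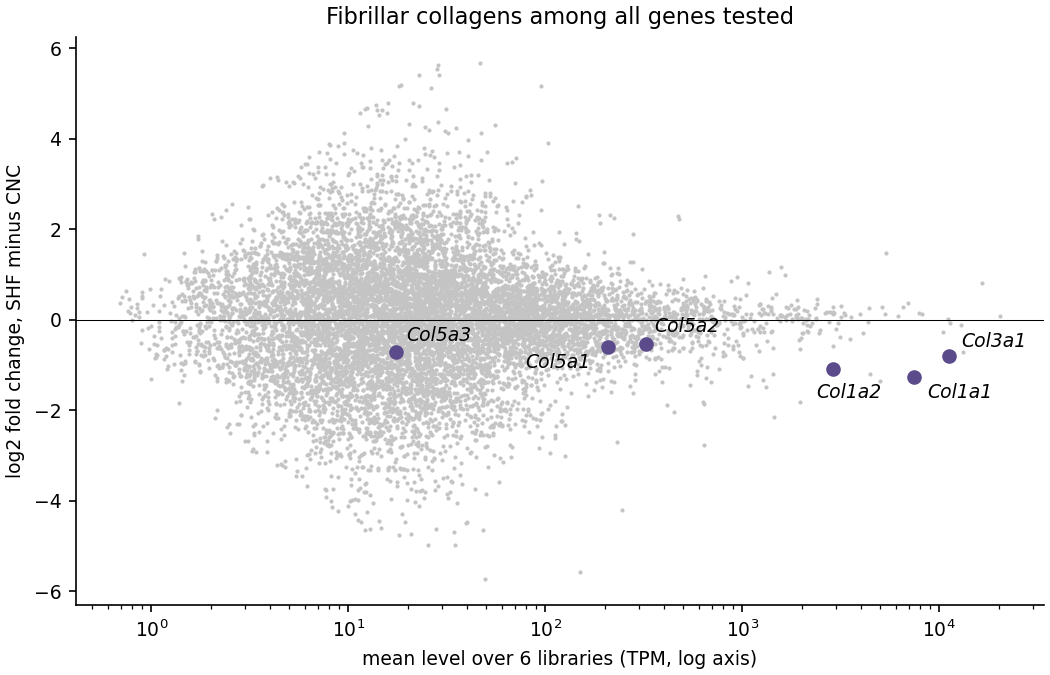
Log2 fold change, SHF minus CNC, of each of the 10185 genes tested (grey) against its mean level over 6 libraries (TPM, log axis), with the 6 tested fibrillar collagens in purple. All 6 lie below 0, and *Col1a1* (-1.26), *Col1a2* (-1.08) and *Col3a1* (-0.80) lie at high mean levels where most genes are close to 0.

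The 7 genes summed to 15560, 12817 and 15358 TPM in SHF and to 34079, 19939 and 34646 TPM in CNC. This was 1.46% ± 0.153 of all TPM in SHF and 2.96% ± 0.833 in CNC (SD, n = 3), a ratio of means of 2.03 with no overlap. Types I and III together held 96.6% to 98.1% of that sum in every library. Type I held 41.7%, 44.2% and 40.8% of it in SHF and 46.7%, 51.0% and 51.1% in CNC, type III 54.9%, 52.8% and 56.3% against 51.5%, 46.4% and 46.6%, and type V 3.32%, 3.01% and 2.87% against 1.85%, 2.63% and 2.32%. The share of type I was thus higher, and those of types III and V lower, in all 3 CNC libraries than in any SHF library.

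**Figure D3:**
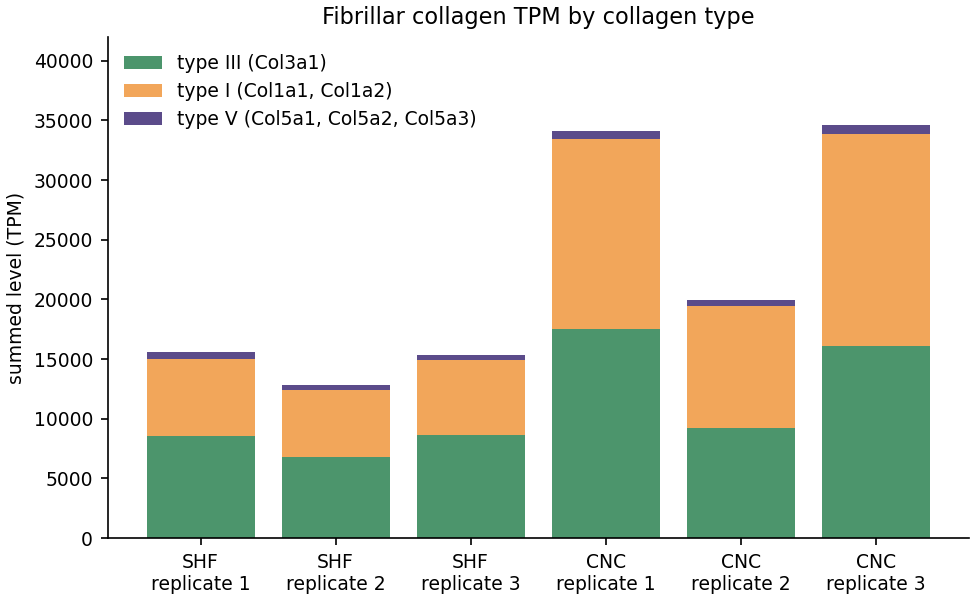
Summed TPM of the fibrillar collagens in each library, split into type III (green), type I (orange) and type V (purple); *Col11a1*, at most 6.25 TPM, is not drawn. The CNC bars reach 34079, 19939 and 34646 TPM and the SHF bars 15560, 12817 and 15358 TPM, with type V a thin layer in each.

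Ratios within a library do not depend on the library's total, and 4 were compared with exact two-sided permutation tests, whose smallest possible p is 0.1. Adjusted p-values are by Benjamini-Hochberg over the 4. *Col1a1* to *Col1a2* was 2.33, 2.42 and 2.34 in SHF and 2.87, 2.58 and 2.59 in CNC (log2 difference -0.18, exact p = 0.1, adjusted p = 0.133), without overlap, but after quantile normalization the difference was 0.05. *Col3a1* to *Col1a1* was 1.88, 1.69 and 1.97 in SHF and 1.49, 1.26 and 1.26 in CNC (log2 difference 0.47, exact p = 0.1, adjusted p = 0.133), without overlap. After quantile normalization that difference was 0.28 (exact p = 0.3). The type V genes summed to 0.0795, 0.0681 and 0.0704 of the type I genes in SHF and to 0.0397, 0.0515 and 0.0455 in CNC (log2 difference 0.68, exact p = 0.1, adjusted p = 0.133), again without overlap. *Col5a1* to *Col5a2* was 0.618, 0.433 and 0.866 in SHF and 0.742, 0.532 and 0.668 in CNC, and overlapped (log2 difference -0.06, exact p = 0.9). Without SHF replicate 2 that last difference was 0.19 and without CNC replicate 1 it was 0.04.

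**Figure D4:**
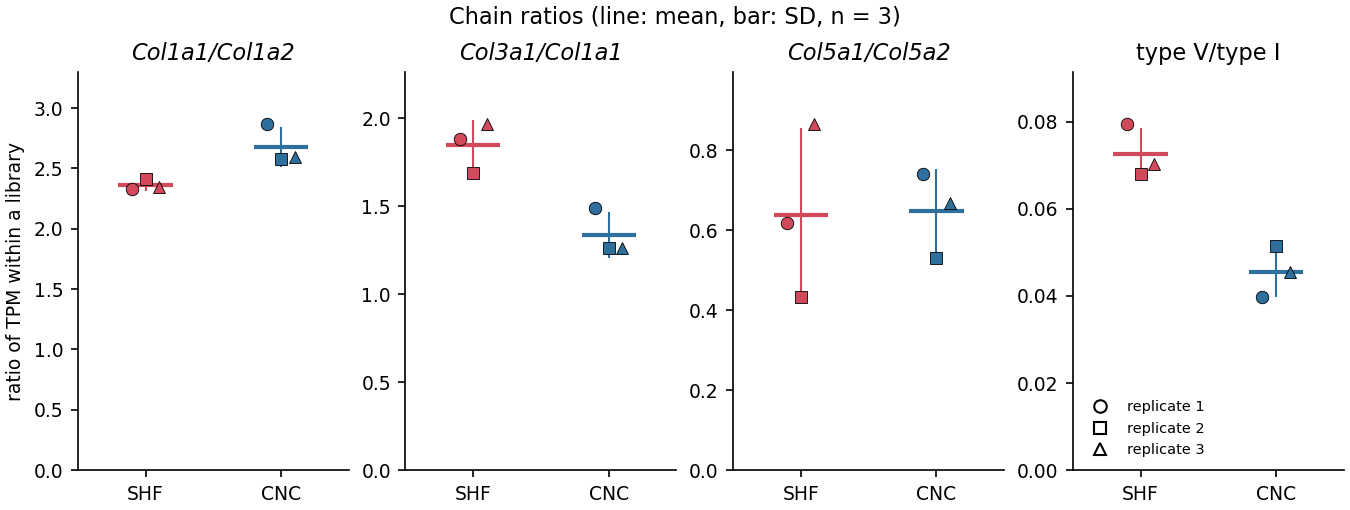
Ratios of TPM within each library, in SHF (red) and CNC (blue), each axis starting at 0; symbols give the replicate, horizontal lines the mean and vertical bars the SD (n = 3). The lineages do not overlap for *Col1a1*/*Col1a2*, *Col3a1*/*Col1a1* and type V/type I, and overlap for *Col5a1*/*Col5a2*.

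The genes that make, process and bind these collagens were taken from 6 lists, and none of them passed an adjusted p of 0.05. Of 21 tested genes of chain modification and folding, 2 were higher in CNC at an unadjusted p under 0.05, against 3.17% of all genes tested, and the median log2 fold change was -0.19. *Serpinh1*, which encodes the collagen chaperone HSP47, was at 843, 789 and 484 TPM in SHF and at 1638, 2240 and 1945 TPM in CNC (log2 fold change -1.49 ± 0.279 SE, adjusted p = 0.465), without overlap. *P3h1*, a prolyl 3-hydroxylase, was at 19.6, 25.6 and 63.7 TPM in SHF and at 68.8, 104 and 100.0 TPM in CNC, also without overlap (adjusted p = 0.812). The abundant folding gene *P4hb*, a subunit of prolyl 4-hydroxylase, overlapped (log2 fold change -0.26, adjusted p = 0.896). Libraries of *P3h3* and *P3h4*, named after their values were seen, did not overlap in the opposite direction, as in 6.11% of all genes tested, with *P3h4* at 139, 162 and 139 TPM in SHF and 59.7, 52.7 and 121 TPM in CNC.

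Outside the cell, 10 tested genes of propeptide removal and crosslinking had a median log2 fold change of -0.35, and 2 were higher in CNC at an unadjusted p under 0.05 (3.17% of all genes tested). *Lox*, which encodes the crosslinking enzyme lysyl oxidase, was at 299, 89.1 and 68.3 TPM in SHF and at 379, 250 and 581 TPM in CNC, with SHF replicate 1 inside the CNC range (log2 fold change -1.63 ± 0.545 SE, adjusted p = 0.688). Its log2 fold change ran from -2.27 to -1.21 on leaving out each library. *Pcolce2*, an enhancer of C-propeptide removal, was at 377, 335 and 631 TPM in SHF and at 741, 969 and 637 TPM in CNC (adjusted p = 0.771), and its relative *Pcolce* overlapped (log2 fold change -0.45, adjusted p = 0.874).

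Of 19 tested genes of the fibril surface and assembly, 5 were higher in CNC at an unadjusted p under 0.05 (3.17% of all genes tested) and none in SHF (2.69%), with a median of -0.27. *Sparc*, a collagen-binding matricellular protein, was at 3820, 2210 and 2401 TPM in SHF and at 7374, 5093 and 9148 TPM in CNC (log2 fold change -1.36 ± 0.282 SE, adjusted p = 0.475). *Fmod*, which encodes the small proteoglycan fibromodulin, was at 118, 240 and 162 TPM in SHF and at 514, 448 and 1016 TPM in CNC (log2 fold change -1.89 ± 0.4 SE, adjusted p = 0.475). Neither overlapped. The most abundant proteoglycans, decorin and biglycan, were nearly level by contrast, with log2 fold changes of -0.13 for *Dcn* (adjusted p = 0.927) and -0.27 for *Bgn* (adjusted p = 0.891), and both became positive after quantile normalization (0.04 and 0.07).

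The collagen receptor list had 7 tested genes, too few to set a count of 0 apart from the shares over all genes. None reached an unadjusted p of 0.05 and all 7 overlapped, including *Itgb1*, the beta1 integrin chain (log2 fold change 0.28, adjusted p = 0.904), *Ddr1* (1.10, adjusted p = 0.896), *Adgrg1* (1.40, adjusted p = 0.896) and *Ddr2*, a discoidin domain receptor for fibrillar collagen (0.06, adjusted p = 0.995), whose sign turned under several settings given in the closing section. That of *Adgrg1* turned under 1, leaving out the SHF libraries with *Xist* (-0.89), and its value was 0.23 when SHF replicate 2 was left out and 2.55 when SHF replicate 1 was. For *Ddr1*, leaving out CNC replicate 2 gave 0.55 and leaving out CNC replicate 1 gave 1.74. Of 9 tested genes of collagen breakdown, 2 were higher in CNC at an unadjusted p under 0.05 (3.17% of all genes tested) and the median was -0.63. These were *Ctsl*, encoding the lysosomal protease cathepsin L (log2 fold change -0.63 ± 0.222 SE, adjusted p = 0.706), and *Fap*, a serine protease of fibroblasts, at 12.8, 0 and 0.22 TPM in SHF and 20.3, 81.0 and 24.4 TPM in CNC (adjusted p = 0.748). *Mmp2*, a gelatinase, did not overlap but had a log2 fold change of -0.47 (adjusted p = 0.874).

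Regulators of collagen genes were the list with a positive median, 0.44 over 21 tested genes, apart from the receptors at 0.28. *Tcf21*, a transcription factor of fibroblast precursors, was at 295, 238 and 531 TPM in SHF and at 57.6, 106 and 48.0 TPM in CNC (log2 fold change 2.31 ± 0.455 SE, adjusted p = 0.475). *Tgfbr1*, the type I TGF-beta receptor, was at 61.4, 70.3 and 112 TPM in SHF and at 4.19, 53.0 and 24.6 TPM in CNC (log2 fold change 2.04 ± 0.858 SE, adjusted p = 0.813). Neither overlapped, but without CNC replicate 1 the log2 fold change of *Tgfbr1* was 1.10. The more abundant *Ctgf*, a matricellular gene induced by TGF-beta (0.33, adjusted p = 0.931), and the ligand gene *Tgfb3* (-0.36, adjusted p = 0.902) overlapped, and *Ctgf* turned to -0.38 without SHF replicate 1, which held 1998 TPM.

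**Figure D5:**
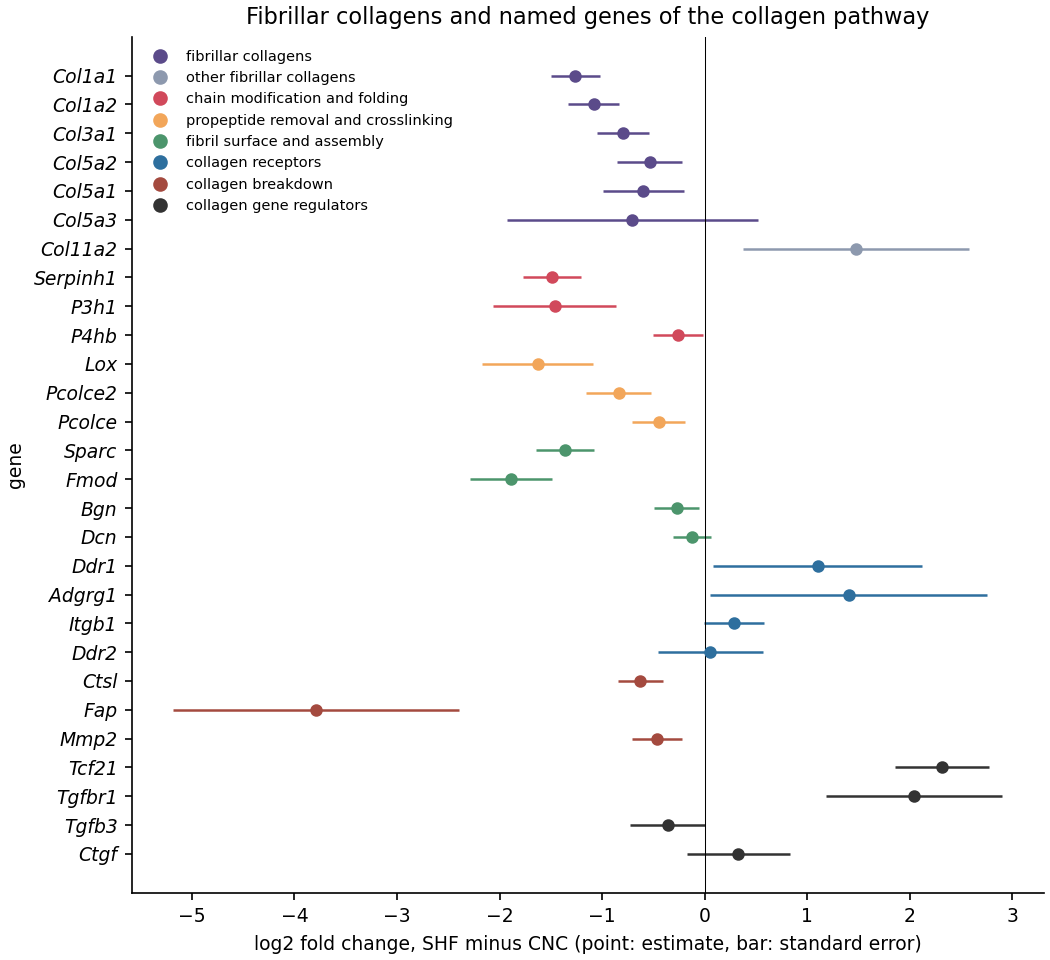
Log2 fold change, SHF minus CNC, with its standard error for the 6 tested fibrillar collagens and for genes of 7 lists, coloured by list. Points left of 0 were higher in CNC; *Serpinh1* (-1.49), *Sparc* (-1.36) and *Fmod* (-1.89) lie beside *Col1a1* (-1.26), *Tcf21* (2.31) lies to the right, and no gene passed an adjusted p of 0.05.

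Genes whose profile over the 6 libraries was nearest to a member were described by the root mean square difference of log2(TPM + 1) after centring each gene on its own mean, with the members themselves left out of the search. Nearest to *Col1a1* were *Abcc9* (0.164), *Matn2* (0.165) and *Stra13* (0.167). Nearest to *Col3a1* were *Olfm1* (0.0676), *Esyt1* (0.117) and *Stra13* (0.139), and nearest to *Col5a1* were *Ndufb9* (0.0681), *Fxyd1* (0.109) and *Col6a2* (0.136).

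What cells the libraries held bears on these levels, since in bulk samples fewer cells of a type and less RNA per cell cannot be told apart. The sum of 14 fibroblast markers other than collagens, all above 0 in every library, was 35495 to 52474 TPM in SHF and 40107 to 51773 TPM in CNC, led by *Gsn* and *Dcn*. The sum of 12 smooth muscle markers, led by *Myl9* and *Acta2*, was 1496 to 3145 TPM in SHF and 1379 to 2075 TPM in CNC, so the fibroblast markers outweighed it in every library of cells that the study treated as smooth muscle. Of the fibroblast markers, 5 were higher in CNC without overlap (*Pi16*, *Clec3b*, *Serpinf1*, *Ly6a* and *Smoc2*), against 9.66% of the genes averaging 100 TPM or more. None was higher in SHF without overlap, against 92 of those 1522 genes, so that 14 markers are too few to set a count of 0 apart. *Lamc3*, at a mean of 33.55 TPM, lay below that level. The mean log2 level of all 14 was 9.39 in SHF and 9.93 in CNC.

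Expressed relative to that mean fibroblast level, the log2 fold change was nearer to 0 for each type I and III gene, at -0.72 for *Col1a1* (unadjusted p = 0.0341, adjusted p = 0.496), -0.54 for *Col1a2* and -0.26 for *Col3a1*, and it was 0.00 for *Col5a2*, while the median of all genes moved from 0.02 to 0.56. On that scale 0 of the 6 tested members kept apart the libraries of the lineages, and the share of all genes tested that did so was not computed. Relative to the summed fibroblast markers the log2 fold changes were -1.13 for *Col1a1*, -0.95 for *Col1a2* and -0.66 for *Col3a1*, while the median of all genes was 0.16. There 2 members did not overlap, and the share of all genes tested was again not computed. Both scalings were chosen after seeing the data, and the part of cell makeup in the collagen levels was not tested further.

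Other markers also differed between libraries. The sum of 10 endothelial markers was 99.5 to 622 TPM in SHF and 24.3 to 73.6 TPM in CNC, where *Cdh5*, *Tie1*, *Emcn*, *Cldn5* and *Vwf* were listed at 0 in each library. The others were not. *Pecam1* was at 31.45, 148 and 142 TPM in SHF and 9.72, 37.9 and 19.8 TPM in CNC. *Tek* was at 31.6, 0 and 57.25 TPM in SHF and 36.7, 23.1 and 1.11 TPM in CNC. *Kdr* reached 14.4 TPM, *Esam* 12.65 TPM and *Egfl7* 1.98 TPM in CNC. The sum of 8 cardiomyocyte markers was 87.4 to 116 TPM in SHF and 0 to 37.9 TPM in CNC. The sum of 10 leukocyte markers was 178 to 387 TPM in SHF and 18.5 to 569 TPM in CNC, with *Ptprc* at 0 in every library, and that of 8 Schwann cell markers was 6.46 to 27.9 TPM against 21.4 to 75.0 TPM, with *Foxd3* at 0 in every library. The sum of 8 chondrocyte markers, led by *Comp* and *Cytl1*, was 732 to 1082 TPM in SHF and 1079 to 1240 TPM in CNC, that of 12 dissociation genes was 6351 to 13837 TPM against 7233 to 9022 TPM, and that of 5 erythroid genes reached 380 TPM in SHF and 48.7 TPM in CNC. Their part in the collagen levels was not tested.

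SHF replicates 2 and 3 listed the female transcript *Xist* at 52.0 and 38.8 TPM and the Y-linked *Ddx3y* at 0, whereas SHF replicate 1 and the CNC libraries listed *Xist* at 0 and *Ddx3y* at 42.2 to 61.3 TPM. The labels do not give sex, and its part in the collagen levels was not tested. With SHF replicate 1 alone against the CNC libraries, its spread assumed to be that of the CNC group, the log2 fold change was -1.19 for *Col1a1*, -0.98 for *Col1a2*, -0.69 for *Col3a1*, -0.31 for *Col5a1*, -0.25 for *Col5a2* and -3.12 for *Col5a3*, for which SHF replicate 1 was the library that stood apart. *Lox* was then at -0.35, *Sparc* at -0.87 and *Fap* at -1.36.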

How the data were processed

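Sorted GFP+ cells of 6 libraries (3 SHF, 3 CNC) were amplified by the SmartSeq2 protocol and tagmented with Nextera XT, which does not mark strand. The authors aligned reads with Bowtie2 and estimated levels with RSEM 1.2.25 on mm10, and deposited TPM per gene; the annotation is not given in the sources used here. Columns sum to 1000000, so depth and detection limits are unknown. Each column was matched to a library through the library code in the labels, and groups came from the labels.

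For the comparison of lineages, a linear model (limma 3.58.1, R 4.3.3, moderated with a mean-variance trend) was fitted to log2(TPM + 1), a scale that understates the change of low genes. The 10185 genes that reached 1 TPM in 3 or more libraries were tested, with Benjamini-Hochberg adjustment over all of them and a threshold of 0.05. The study's methods give no test of level for this matrix. Ratios and single genes were compared with exact permutation tests in scipy 1.17.1, with a pseudocount of 1 TPM in the tests of ratios and none in the ratios printed. The fit was tested on simulated data. Positions came from GENCODE M21 and promoter windows from RefSeq, both matched by symbol.

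The members and the lists were chosen with earlier results of these data known. The genes named were the members, the other fibrillar collagens, the 2 most abundant genes and the 2 with the smallest p of each pathway list, the 3 nearest profiles of *Col1a1*, *Col3a1* and *Col5a1* (that of *Col11a1* was not computed because it did not enter the fit), and the 2 most abundant of each marker list, which are not all printed; the level of 1 marker gene is not reported here. Alternatives were other pseudocounts, filters, scalings, variance models, library weights, a replicate block and leaving out each library. In the matrix, 27 gene names are dates, as spreadsheet programs write some symbols.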

Additional observations from a re-analysis of the deposited data

How the results depend on the processing

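The members' count at an adjusted p under 0.05 was 0 under every alternative run. In the fit without the mean-variance trend, *Col1a1*, *Col1a2* and *Col3a1* no longer reached an unadjusted p under 0.05. The number of genes called was 0 in each, except with a pseudocount of 5 TPM, which called 1 (*Gm13305*, adjusted p = 0.0443, named after its values were seen). Leaving out each library in turn gave 0 to 0 genes and 0 to 0 members called. It gave 4 to 5 members not overlapping, but leaving out a library cannot make separate groups overlap, so this count could not fall. The share over all genes was not computed for these smaller sets. Log2 fold changes were -1.51 to -1.11 for *Col1a1*, -1.30 to -0.91 for *Col1a2* and -1.08 to -0.62 for *Col3a1*. They were -0.84 to -0.32 for *Col5a1*, -0.68 to -0.38 for *Col5a2* and -1.35 to 0.50 for *Col5a3*. The log2 ratio differences then ran from -0.21 to -0.13 for *Col1a1*/*Col1a2*, 0.42 to 0.54 for *Col3a1*/*Col1a1*, -0.31 to 0.19 for *Col5a1*/*Col5a2* and 0.58 to 0.77 for type V/type I, and the difference in summed TPM from -19780 to -12430.

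Relative to the mean log2 fibroblast level, 0 members did not overlap and *Col5a2* was at 0.0016, *P4hb* at 0.28 and *Pcolce* at 0.089. On that scale *Dcn* was at 0.41, *Bgn* at 0.27, *Mmp2* at 0.072 and *Tgfb3* at 0.18. Relative to the summed fibroblast markers, 2 members did not overlap and *Dcn* was at 0.0059. The share of all genes tested that did not overlap was not computed on either scale. Each of these scalings adds the same amount to the log2 fold change of every gene, by construction, and the median of all genes was 0.56 and 0.16. Quantile normalization gave 0.052 for *Col1a1*/*Col1a2*, 0.28 for *Col3a1*/*Col1a1*, 0.040 for *Dcn*, 0.069 for *Bgn* and -0.014 for *Ddr2*. *Ddr2* was at -0.021 with median-of-ratios scaling, -0.11 with library weights, -0.42 without the 2 libraries with *Xist* (chosen after seeing the data), which also put *Adgrg1* at -0.89 and moved the median of all genes to 0.26, and -0.24 to 0.29 on leaving out libraries; *Ctgf* was at -0.38 to 0.82 on leaving out libraries and at 1.75 without the 2 libraries with *Xist*. The causes of the reversals under the settings other than the fibroblast scalings were not tested. All other alternatives kept the direction of the results they were run on.

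With the replicate number as a replicate block, 0 genes were called, and *Col1a1* had a log2 fold change of -1.26 and an adjusted p of 0.588. The SE of *Col3a1* was 0.215 with the block and 0.258 without it. Over all genes tested, deviations of same-numbered libraries did not correlate (-0.0113, -0.00438 and -0.0106). Such a value over all genes cannot decide whether some genes share a batch by number. Replicate 2 was the lowest library of each lineage for *Col1a1*, *Col1a2*, *Col3a1* and *Col5a1*, and a shared batch was not tested. Depth is unknown, which limits the precision of *Col5a3*, *Col11a1* and other low genes, and 3 libraries per lineage cannot give an exact p under 0.1.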
